A study of Mus musculus with 15 samples.

Results

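The 10 genes described here encode the core of Nodal and activin signalling in mouse cells. They are the ligands Nodal and Gdf3, the co-receptors Tdgf1 (also called Cripto) and Cfc1 (Cryptic), the receptors Acvr1b, Acvr2a and Acvr2b, the transcription factor Foxh1, and the secreted inhibitors Lefty1 and Lefty2. They were found by their symbols, and all 10 were among the 24034 gene rows of the count table. Of these rows, 13662 passed a filter on low counts and were tested, and 8 of the 10 genes were among them. Gdf3 and Lefty1 did not pass it. Their levels were followed over 5 sorted groups of differentiated mouse embryonic stem cells, with 3 RNA-seq libraries in each group.

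The cells carried LacZ, the gene of the bacterial enzyme beta-galactosidase, as a reporter driven by regulatory elements of the Endoglin gene (Eng). The line -8/P/+7/+9, in which the Eng promoter is joined to enhancers at -8, +7 and +9 kb, gave FLK1+/LacZ- and FLK1+/LacZ+ cells, FLK1 being the VEGF receptor encoded by Kdr. The line -8/P, with the promoter and the -8 kb enhancer, gave 3 fractions that the labels call HEI: ENG+/FDG-, ENG+/FDG+ and ENG-/FDG+. FDG is a substrate that fluoresces once beta-galactosidase splits it, so FDG+ cells have an active reporter, and ENG is the Endoglin protein. All 5 groups carry a reporter of this kind and no group is without one. The HEI and FLK1+ groups differ in reporter line as well as in sorted population, and the effects of these cannot be told apart. The labels name neither culture days nor separate cultures, and p-values here reflect only how these libraries vary, which may be technical.

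Nodal, like activin, binds a pair of type II and type I receptor kinases, the type II receptors being encoded by Acvr2a and Acvr2b and the type I receptor by Acvr1b. Nodal and Gdf3 also need an EGF-CFC co-receptor, Tdgf1 or Cfc1, whereas activin does not. The active receptor phosphorylates SMAD2 and SMAD3, which enter the nucleus with SMAD4 and act on DNA with partners such as FOXH1. Nodal, Lefty1 and Lefty2 are themselves targets of the pathway, and the Lefty proteins block Nodal from outside the cell. In the mouse embryo the pathway is known for its roles in the primitive streak, in mesoderm and endoderm, and in left-right asymmetry.

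Start regions of 4 of these genes are shown because they differed in level in opposite directions between the FLK1+ and HEI cells: those of Nodal, Tdgf1 and Cfc1, which were higher in FLK1+ cells, and that of Acvr1b, which was higher in HEI cells. The sequences are RefSeq windows of 300 bases in assembly GRCm38.p6, from 250 bases before to 50 bases after the gene's start, written 5′ to 3′ on the gene's strand. The table held such a window for 6 of the 10 genes. Capitals mark matches to the letters TGTNNATT (a FOXH1-type motif) or CAGAC (a SMAD-type motif) on either strand. The windows lie at chr10:61417722-61418021 on the plus strand (Nodal), chr9:110946109-110946408 on the minus strand (Tdgf1), chr1:34535398-34535697 on the plus strand (Cfc1) and chr15:101173822-101174121 on the plus strand (Acvr1b).
Nodal: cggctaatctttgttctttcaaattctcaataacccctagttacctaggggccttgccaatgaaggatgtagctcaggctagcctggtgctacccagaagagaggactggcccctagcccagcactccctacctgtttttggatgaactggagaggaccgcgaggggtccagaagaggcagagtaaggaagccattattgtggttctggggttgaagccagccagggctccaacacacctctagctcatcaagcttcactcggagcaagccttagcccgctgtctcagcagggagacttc
Tdgf1: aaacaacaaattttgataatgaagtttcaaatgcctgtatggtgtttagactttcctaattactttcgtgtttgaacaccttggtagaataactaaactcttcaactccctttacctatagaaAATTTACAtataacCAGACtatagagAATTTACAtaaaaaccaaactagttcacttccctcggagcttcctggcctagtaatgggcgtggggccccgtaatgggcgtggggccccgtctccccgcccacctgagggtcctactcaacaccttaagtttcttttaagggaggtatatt
Cfc1: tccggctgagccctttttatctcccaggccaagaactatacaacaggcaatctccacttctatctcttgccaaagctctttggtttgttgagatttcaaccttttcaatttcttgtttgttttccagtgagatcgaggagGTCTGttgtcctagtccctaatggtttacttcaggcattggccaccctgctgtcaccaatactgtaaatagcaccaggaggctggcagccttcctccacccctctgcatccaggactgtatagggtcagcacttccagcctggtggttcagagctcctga
Acvr1b: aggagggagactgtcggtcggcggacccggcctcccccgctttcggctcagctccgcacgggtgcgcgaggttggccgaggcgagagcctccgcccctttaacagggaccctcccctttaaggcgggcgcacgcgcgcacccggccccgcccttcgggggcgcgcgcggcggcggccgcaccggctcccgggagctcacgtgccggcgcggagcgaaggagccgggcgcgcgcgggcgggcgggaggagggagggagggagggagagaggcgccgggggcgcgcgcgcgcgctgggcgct

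The Tdgf1 window held 2 FOXH1-type matches, which start at −127 and −101 from the gene's start, with 1 SMAD-type match between them at −113, and none of these matches overlap. No other window of the 6 held a FOXH1-type match, and 12.2% of all 32851 such windows in the table did. A SMAD-type match stood in the windows of Tdgf1, Cfc1, Acvr2a and Acvr2b, 4 of the 6, against 49.6% of all windows. The windows of Tdgf1, Nodal and Cfc1 held 7, 5 and 2 CpG, at or below the median of 7 over all windows. Those of the receptor genes were rich in CpG, with 51 in Acvr1b, 54 in Acvr2a and 27 in Acvr2b. A match describes only these letters in these windows.

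In mm10, Nodal lies at chr10:61417972-61425338, Gdf3 at chr6:122605403-122610087, Tdgf1 at chr9:110939603-110946158 and Cfc1 at chr1:34535648-34544313. Acvr1b lies at chr15:101174067-101213684, Acvr2a at chr2:48814109-48903269, Acvr2b at chr9:119402118-119434995 and Foxh1 at chr15:76668225-76669948. Lefty2 (chr1:180893108-180899103) and Lefty1 (chr1:180935022-180938400) are neighbouring paralogs of similar sequence, so how reads were divided between them is uncertain. Whether the counting used strand is not given in the sources used here. On the opposite strand, 289 exon bases of Cfc1 are shared with Prss40 and 446 exon bases of Acvr2a with Orc4, and reads of these pairs may not be separated.

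Library totals were 12218593 to 16375835 counts in the 5 replicate 1 libraries and 9705729 to 11785528 in the 10 others. The replicate 1 libraries stood apart: their deviations from the group means correlated at −0.764 to −0.475 with those of replicates 2 and 3. Results are therefore also given from a fit that blocks on the replicate number and from replicates 2 and 3 alone. Levels are in CPM, counts scaled to a common library size, and levels of different genes are compared only as RPKM, which also divides by exon length. Kdr was present in every library, at 319 to 716 CPM in FLK1+ cells. Eng was at 180 to 962 CPM in the ENG+ libraries and at 39.4 to 161 CPM in the ENG- libraries. One library, FLK1+/LacZ+ replicate 1, held far more RNA of pluripotent cell markers than its group: the summed level of 9 markers was 415 CPM there and 21.9 and 30.8 CPM in replicates 2 and 3. This sum leaves out Klf4, a choice made after its level in HEI cells was seen; with Klf4 the 3 values were 445, 31.9 and 39.7 CPM. In LacZ- cells the sum without Klf4 was 116, 43.5 and 38.4 CPM, and in HEI cells it was 0.0952 to 5.60 CPM, with Pou5f1 and Sox2 at 0 counts in all 6 ENG+ libraries.

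Of the 10 Nodal signalling genes, most were lower in HEI than in FLK1+ cells, though Gdf3 and Lefty1 had few reads in most FLK1+ libraries too. The co-receptor Tdgf1, the factor Foxh1, the co-receptor Cfc1 and the inhibitor Lefty2 were higher in all 6 FLK1+ libraries than in all 9 HEI libraries, as were 9.57% of all genes tested, while 8.58% of genes and none of the 8 were lower in this way. The ligand Nodal was also lower in HEI cells, whereas the receptor Acvr1b was 1.47-fold higher there. Of the 8 genes tested, 6 fell and 1 rose from FLK1+ to HEI cells at an adjusted p under 0.05 (edgeR quasi-likelihood test, adjusted over all genes). Over all 13662 genes, 20.3% fell, 17.0% rose and 37.3% passed in either direction. The median log2 difference was −3.72 over the 8 genes and −0.11 over all genes tested. Genes that pass the filter only through their FLK1+ level, here Lefty2, Tdgf1, Cfc1 and Nodal, had to differ. These figures thus describe the genes and are no support for a joint change. In bulk libraries, fewer cells of a type and less RNA per cell cannot be told apart.

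**Figure D1:**
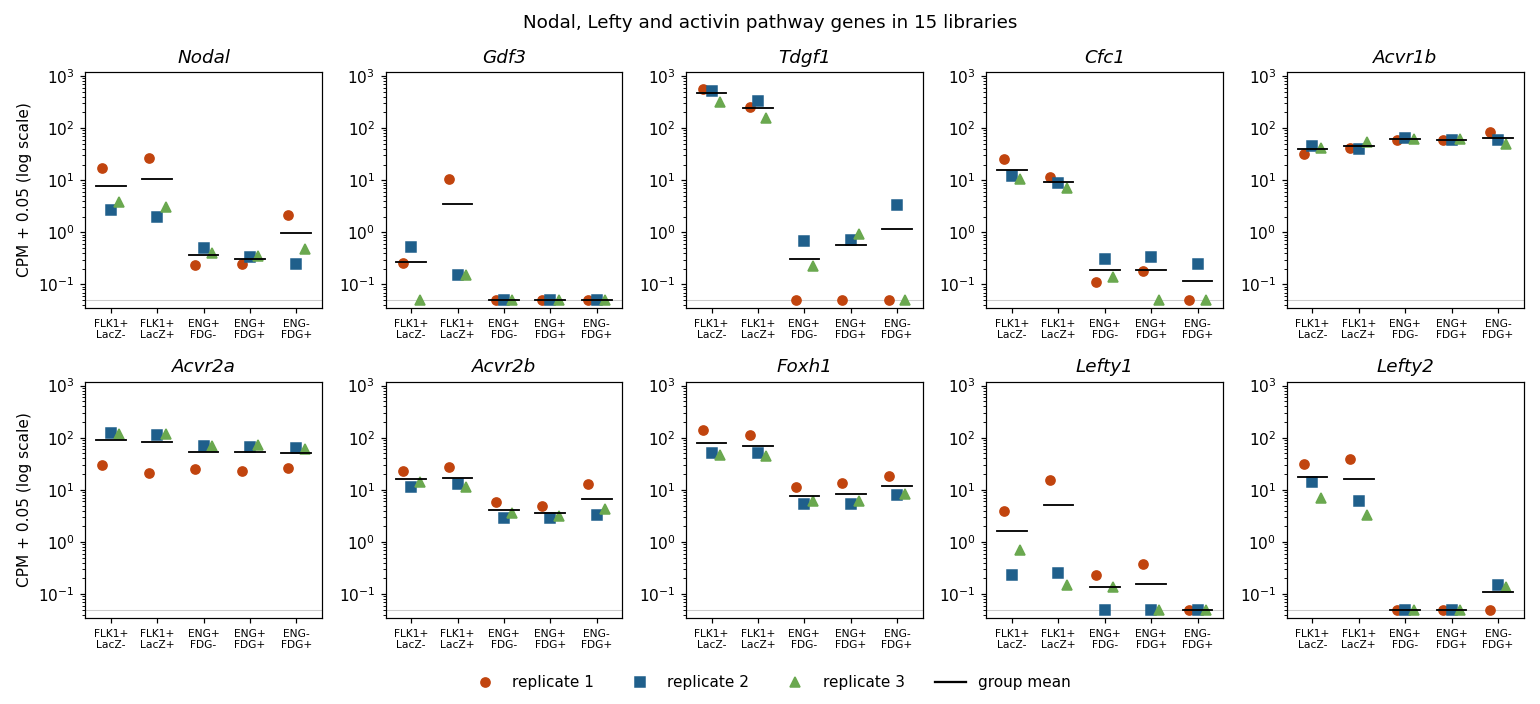
Level of each of the 10 genes (CPM + 0.05, logarithmic axis) in the 15 libraries, by sorted group, with 1 point per library, a marker for the replicate number and a black line at the group mean. Libraries with 0 counts lie on the grey line at 0.05. Tdgf1, Cfc1, Foxh1 and Lefty2 are higher in all 6 FLK1+ libraries than in all 9 HEI libraries, and the 5 replicate 1 libraries lie lowest for Acvr2a.

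Among the ligands, Nodal stood at 16.8, 2.58 and 3.71 CPM in replicates 1, 2 and 3 of the LacZ- cells and at 26.8, 1.90 and 2.98 CPM in the LacZ+ cells. In HEI cells it stood at 0.182, 0.441 and 0.346 CPM in the ENG+/FDG- fraction, at 0.195, 0.286 and 0.298 CPM in the ENG+/FDG+ fraction, and at 2.12, 0.192 and 0.426 CPM in the ENG-/FDG+ fraction. The FLK1+ and HEI ranges overlapped only through ENG-/FDG+ replicate 1, the highest of the 9 HEI libraries, which held 25 Nodal reads against 2 to 5 in the other 8. The mean was 9.14 ± 10.3 CPM (SD, n = 6) in FLK1+ cells and 0.499 ± 0.616 CPM (SD, n = 9) in HEI cells, an 18.3-fold difference. The log2 difference of HEI minus FLK1+ cells was −4.39 ± 0.72 (SE; adjusted p = 0.000371, edgeR).

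Most Nodal RNA was in the replicate 1 libraries. Their 2 FLK1+ libraries averaged 7.82 times the level of the 4 others. The difference from HEI cells was −2.92 ± 0.35 on the log2 scale in replicates 2 and 3 alone, and −3.33 ± 0.58 without FLK1+/LacZ+ replicate 1, the library with the high pluripotent markers; its adjusted p was then 0.00081 (edgeR). Without FLK1+/LacZ- replicate 1 it was −3.74 ± 0.68. The part of those cells in the Nodal level was not tested.

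Gdf3, a Nodal-related ligand of early embryo cells, was almost confined to 1 library. It had 162 counts in FLK1+/LacZ+ replicate 1, 10.3 CPM, and 0 to 5 counts in each of the other 5 FLK1+ libraries. All 9 HEI libraries had 0 counts. Taking 3 counts over the 9 HEI libraries as the most that a count of 0 allows, a limit for counting error only, the mean FLK1+ level was at least 68.1-fold higher. Tested without the filter on low counts, where 14.5% of genes fell, Gdf3 was lower in HEI cells at an adjusted p of 0.0212 with all libraries, 0.0474 without that library and 0.0503 in replicates 2 and 3 (edgeR). In that library Utf1, Tdh, Pou5f1 and Dppa5a, all markers of pluripotent cells, were at 153, 46.9, 37.7 and 100.5 CPM, against at most 0.821, 0, 2.4 and 5.85 CPM in the other 2 LacZ+ libraries. In FLK1+/LacZ- replicate 1, which had 3 Gdf3 counts, the same markers were at 6.17, 1.96, 11.7 and 71.3 CPM. Their part in the Gdf3 level was not tested.

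Among the co-receptors, Tdgf1 was the most abundant of the 10 genes per length in FLK1+ cells, at 136 RPKM. Its level was 569, 516 and 324 CPM in LacZ- cells and 251, 325 and 158 CPM in LacZ+ cells. HEI libraries held at most 35 reads of it. Its HEI levels were 0, 0.617 and 0.173 CPM (ENG+/FDG-), 0, 0.667 and 0.894 CPM (ENG+/FDG+) and 0, 3.37 and 0 CPM (ENG-/FDG+). The groups did not overlap, and the lowest FLK1+ library was far above the highest HEI library. The mean was 357 ± 157 CPM (SD, n = 6) in FLK1+ cells and 0.635 ± 1.08 CPM (SD, n = 9) in HEI cells, 562-fold apart. The log2 difference was −9.37 ± 0.89 (SE; adjusted p = 4.58e-06, edgeR), and −11.61 ± 0.83 without ENG-/FDG+ replicate 2, which held the 35 reads. The FLK1+ means of Tdgf1 in replicates 1, 2 and 3 were 410.2, 420.4 and 241 CPM, so its high values were not those of replicate 1 alone.

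Cfc1, the other co-receptor, followed the same order at a lower level. It stood at 25.7, 11.9 and 10.3 CPM in LacZ- cells and at 11.3, 8.80 and 7.18 CPM in LacZ+ cells, and at 0 to 3 counts in each HEI library. The FLK1+ mean of 12.5 ± 6.69 CPM (SD, n = 6) was 111-fold above the HEI mean of 0.113 ± 0.112 CPM (SD, n = 9), with a log2 difference of −6.73 ± 0.54 (SE; adjusted p = 1.33e-06, edgeR), and −7.65 ± 0.59 without ENG-/FDG+ replicate 2. Per length, Tdgf1 RNA exceeded Cfc1 RNA 8.70 to 17.2 times in the 6 FLK1+ libraries, so Tdgf1 was the main EGF-CFC transcript in each.

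The receptors were present in all 15 libraries and did not share a direction. Acvr1b, the type I receptor that Nodal and activin share, was at 31.9, 44.7 and 41.2 CPM in LacZ- cells and 42.0, 39.6 and 53.1 CPM in LacZ+ cells. In HEI cells it was at 59.3, 65.0 and 63.0 CPM (ENG+/FDG-), 60.1, 57.9 and 60.5 CPM (ENG+/FDG+) and 82.7, 59.3 and 48.8 CPM (ENG-/FDG+). The lowest HEI library lay within the FLK1+ range and the other 8 lay above it. The means were 42.1 ± 6.90 CPM (SD, n = 6) in FLK1+ cells and 61.9 ± 9.02 CPM (SD, n = 9) in HEI cells, and the log2 difference was 0.56 ± 0.15 (SE; adjusted p = 0.00896, edgeR).

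Acvr2b, a type II receptor, fell. It was at 23.4, 11.2 and 13.9 CPM in LacZ- cells and 27.4, 13.1 and 11.1 CPM in LacZ+ cells. In HEI cells it was at 5.88, 2.82 and 3.55 CPM (ENG+/FDG-), 4.81, 2.86 and 3.08 CPM (ENG+/FDG+) and 12.8, 3.27 and 4.17 CPM (ENG-/FDG+). Only ENG-/FDG+ replicate 1 reached the FLK1+ range. The mean fell 3.47-fold, from 16.7 ± 6.95 CPM (SD, n = 6) to 4.81 ± 3.17 CPM (SD, n = 9), with a log2 difference of −1.84 ± 0.35 (SE; adjusted p = 0.00104, edgeR).

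Acvr2a, the other type II receptor, split by replicate number more than by group. It was at 30.6, 123 and 117 CPM in LacZ- cells and at 20.8, 112 and 118 CPM in LacZ+ cells. In HEI cells it was at 25.4, 68.5 and 69.4 CPM (ENG+/FDG-), 22.5, 65.7 and 72.2 CPM (ENG+/FDG+) and 26.3, 64.5 and 59.5 CPM (ENG-/FDG+). Replicates 2 and 3 were 4.58 times as high as replicate 1 in FLK1+ cells and 2.69 times in HEI cells, the opposite order to that of Acvr2b. With group means alone the log2 difference of HEI minus FLK1+ cells was −0.72 ± 0.44 (SE; adjusted p = 0.228, edgeR). With the replicate block it was −0.58 ± 0.13 (adjusted p = 0.000926), and in replicates 2 and 3 alone −0.72 ± 0.05, past the threshold in both. Within replicate 1 the difference was −0.03, and within replicates 2 and 3 it was −0.83 and −0.81.

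The balance of the type II receptors moved with the replicate as well. As a share of both RNAs per length, Acvr2b made up 52.5%, 11.6% and 14.7% in LacZ- cells and 65.6%, 14.5% and 12% in LacZ+ cells. In the HEI fractions it made up 25.1%, 5.63% and 6.90% (ENG+/FDG-), 23.6%, 5.92% and 5.81% (ENG+/FDG+) and 41.4%, 6.83% and 9.22% (ENG-/FDG+). Within each replicate number every FLK1+ library was above every HEI library. Over all libraries the share was 28.5 ± 24.1% (SD, n = 6) against 14.5 ± 12.7% (SD, n = 9; exact permutation test, two-sided p = 0.164). In replicates 2 and 3 it was 13.2 ± 1.64% (n = 4) against 6.72 ± 1.34% (n = 6), with an exact permutation p of 0.00952, the smallest this design allows. In replicate 1 it was 59.0 ± 9.24% (n = 2) against 30.0 ± 9.83% (n = 3), where an exact permutation test cannot go below 0.2. This share was chosen after the values were seen, so its p-values are a description and no support for a difference. The permutations over all libraries also ran across replicate numbers, between which the share differed most.

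**Figure D2:**
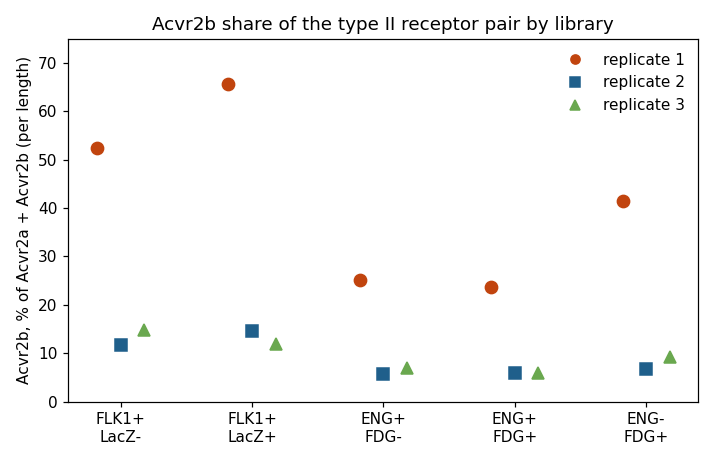
Share of Acvr2b in the summed length-scaled RNA of Acvr2a and Acvr2b (percent) in each library, by group, with markers for the replicate number. The replicate 1 libraries lie between 23.6% and 65.6% and the other 10 libraries between 5.63% and 14.7%, and within each replicate number the FLK1+ libraries lie above the HEI libraries.

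Foxh1, the SMAD partner, fell 8.19-fold and remained detectable in all 9 HEI libraries. It was at 140.5, 51.1 and 46.8 CPM in LacZ- cells and at 114, 50.7 and 45.2 CPM in LacZ+ cells. In HEI cells it was at 11.3, 5.29 and 6.06 CPM (ENG+/FDG-), 13.2, 5.24 and 6.06 CPM (ENG+/FDG+) and 18.7, 8.08 and 8.35 CPM (ENG-/FDG+). Every FLK1+ library was above every HEI library, and replicate 1 was the highest of each group. The means were 74.8 ± 41.7 CPM (SD, n = 6) and 9.14 ± 4.51 CPM (SD, n = 9), with a log2 difference of −3.05 ± 0.37 (SE; adjusted p = 3.24e-05, edgeR). Per length, Foxh1 stood at 54.8 RPKM in FLK1+ cells, second to Tdgf1 among the 10 genes, and at 6.69 RPKM in HEI cells.

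Of the inhibitors, Lefty2 was present in every FLK1+ library and nearly missing from HEI cells. It was at 30.8, 13.9 and 7.04 CPM in LacZ- cells and at 39.7, 6.20 and 3.18 CPM in LacZ+ cells. Of the 9 HEI libraries 7 had 0 counts, and ENG-/FDG+ replicates 2 and 3 had 1 count each. FLK1+ libraries held 1380 counts and HEI libraries 2, a ratio of 1057 at equal depth with a 95% exact interval of 292.1 to 8739 that covers counting error only. The log2 difference was −9.75 ± 0.97 (SE; adjusted p = 6.08e-05, edgeR), and −8.82 ± 0.67 without FLK1+/LacZ+ replicate 1. Per length, Lefty2 RNA was 0.858 to 4.33 times Nodal RNA in the 6 FLK1+ libraries.

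Lefty1 resembled Gdf3 more than Lefty2. It had 238 counts in FLK1+/LacZ+ replicate 1 (15.2 CPM), 56 in LacZ- replicate 1 (3.93 CPM) and 1 to 7 in each of the other 4 FLK1+ libraries. HEI libraries had 0 to 5 counts. The replicate 1 libraries of the FLK1+ cells thus averaged 33.7 times the level of the others, against 4.64 times for Lefty2. Tested without the filter on low counts, the log2 difference of HEI minus FLK1+ cells was −5.70 ± 1.29 (SE; adjusted p = 0.00534, edgeR). Without FLK1+/LacZ+ replicate 1 it was −3.18 ± 1.15 (adjusted p = 0.0632) and no longer past the threshold. In replicates 2 and 3, which also leave that library out, it was −3.70 ± 1.45 (adjusted p = 0.0204), and with the replicate block −5.71 ± 0.76 (adjusted p = 5.17e-06). The pluripotent markers of that library are given above, and their part in the Lefty1 level was not tested.

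Per length, the 10 genes kept a wide order within each population. In FLK1+ cells Tdgf1 (136 RPKM) and Foxh1 (54.8 RPKM) were followed by Acvr2a (15.3), Cfc1 (12.1), Acvr1b (9.52), Lefty2 (6.44), Nodal (4.36), Acvr2b (4.24), Lefty1 (1.92) and Gdf3 (0.772 RPKM). In HEI cells the receptors and Foxh1 led, with Acvr1b at 14, Acvr2a at 9.26, Foxh1 at 6.69 and Acvr2b at 1.22 RPKM, and the other 6 were at or below 0.242 RPKM. Among the 5 groups, neighbouring groups of the same population overlapped in range for all 10 genes. Neighbours on either side of the step between FLK1+ and HEI cells did not overlap for Nodal, Tdgf1, Cfc1, Foxh1, Lefty2 and Acvr1b, although for Nodal and Acvr1b other pairs of groups did. Neighbours were set by the order of the group means. The share of all genes without overlap by this rule was not counted, so the names are a description only.

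Among the 8 genes tested the step held within each replicate number, except for Acvr2a, which differed by only −0.03 within replicate 1. For Nodal the log2 differences of HEI minus FLK1+ means were −5.02, −2.37 and −2.75 in replicates 1, 2 and 3. For Foxh1 they were −3.16, −3.03 and −2.74, and for Acvr2b −1.80, −1.96 and −1.75, so these genes differed by nearly the same factor in each replicate despite their higher level in replicate 1. For Acvr1b they were 0.86, 0.53 and 0.29. With the replicate block 1 of the 8 genes rose and 7 fell, against 28.8% and 37.4% of all genes, and in replicates 2 and 3 the counts were again 1 and 7, against 36.8% and 36.9%. The added call in both was Acvr2a.

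**Figure D3:**
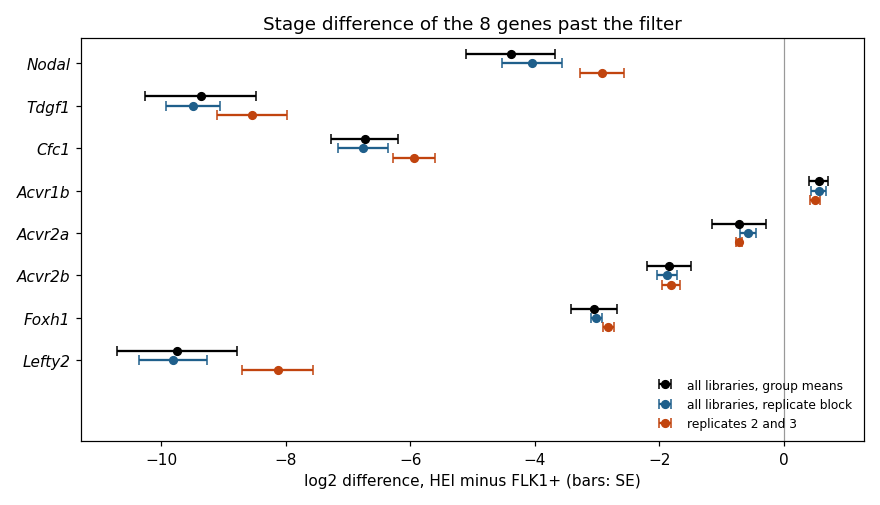
Log2 difference of HEI minus FLK1+ cells (x axis) with its SE (bars) for the 8 genes tested, from the fit of group means, the fit with the replicate block and replicates 2 and 3 alone. Acvr1b lies above 0 and the other 7 genes below it in all 3 fits, with Tdgf1 and Lefty2 the farthest below.

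The first contrast within a population asks how cells with an active -8/P/+7/+9 reporter differ from those without it among FLK1+ cells. None of the 8 genes passed the threshold between LacZ+ and LacZ- cells (edgeR). None of the 13662 genes did (0.0%), 170 genes and none of the 8 were at an unadjusted p under 0.05, and DESeq2 called 7 genes (0.0512%) with none of the 8 among them; it gave no adjusted p for 4 of the 8 (Nodal, Cfc1, Acvr2b and Lefty2), which thus could not be called. In the fit with the replicate block 0 genes passed (0.0%). There 620 genes were at an unadjusted p under 0.05 (edgeR), of the 8 only Tdgf1 (0.0401). In replicates 2 and 3 alone 972 genes were, of the 8 only Lefty2. Its log2 difference there was −1.16 ± 0.37 (SE, unadjusted p = 0.00725, adjusted p = 0.486, edgeR). With group means the log2 difference was −0.94 ± 1.01 (SE) for Tdgf1, −0.81 ± 0.65 for Cfc1 and 0.46 ± 0.99 for Nodal. It was −0.18 ± 0.56 for Foxh1 and −0.07 ± 0.92 for Lefty2. For the receptors it was 0.19 ± 0.23 for Acvr1b, −0.11 ± 0.69 for Acvr2a and 0.09 ± 0.54 for Acvr2b.

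Within the same-numbered pairs both co-receptors were lower in LacZ+ cells each time. Here and in the comparisons below, the values set replicate 1 apart but do not show that the numbers 2 and 3 pair the libraries. On the scale log2(CPM + 0.2), Tdgf1 differed by −1.18, −0.67 and −1.04 in replicates 1, 2 and 3. Cfc1 differed by −1.17, −0.43 and −0.51. Foxh1 was also lower in 3 of 3 pairs, but by −0.30, −0.01 and −0.05 only. Over all genes tested 12.3% were lower in 3 of 3 pairs and 17.6% higher. Nodal and Lefty2 went in opposite directions in replicate 1 and in the others: Nodal differed by 0.67, −0.41 and −0.30, and Lefty2 by 0.36, −1.14 and −1.10. The pluripotent markers were summed at 415 CPM in the LacZ+ library of the first pair and at 116 CPM in its LacZ- library, and their part in these differences was not tested.

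**Figure D4:**
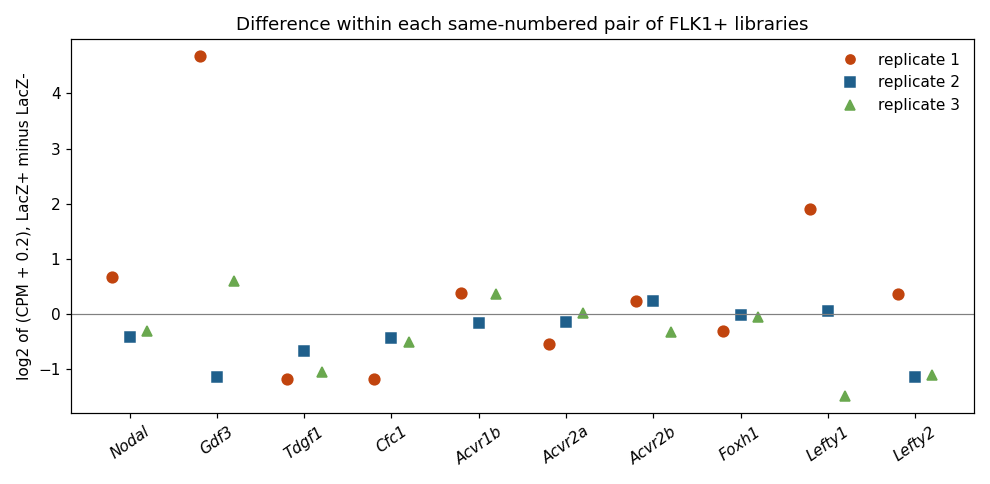
Difference of LacZ+ minus LacZ- cells in log2(CPM + 0.2) for each of the 10 genes, with 1 point for each same-numbered pair of FLK1+ libraries. Tdgf1, Cfc1 and Foxh1 lie below 0 in all 3 pairs, and Gdf3 and Lefty1 reach 4.68 and 1.90 in replicate 1.

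The second contrast asks the same of the -8/P reporter within ENG+ HEI cells. None of the 8 genes passed between ENG+/FDG+ and ENG+/FDG- cells, nor did any gene tested (0.0%; 39 genes at an unadjusted p under 0.05, none of the 8 among them; DESeq2 called 0). The log2 difference was 0.12 ± 0.57 (SE) for Foxh1, −0.07 ± 0.22 for Acvr1b, −0.03 ± 0.70 for Acvr2a, −0.19 ± 0.56 for Acvr2b and −0.30 ± 1.30 for Nodal. Each of these differences was smaller than its SE. Nodal, Cfc1 and Lefty2 had 0 to 5 counts in each ENG+ library and Tdgf1 0 to 9, which limits what these comparisons can show for them. None of the 8 genes passed the test of a difference in reporter effect between HEI and FLK1+ cells (0.0% of all genes; 97 genes at an unadjusted p under 0.05, none of the 8 among them; DESeq2 called 0), with a difference of 0.30 ± 0.80 for Foxh1.

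Fractions with and without ENG were compared in 2 ways, which share the ENG-/FDG+ libraries. Between ENG+/FDG+ and ENG-/FDG+ cells none of the 8 genes passed with group means, against 0.278% of all genes (edgeR). At an unadjusted p under 0.05 were 1288 of the 13662 genes and none of the 8. With the replicate block 3699 genes were, and of the 8 Foxh1 and Acvr2b (0.00375 and 0.0124, edgeR). In replicates 2 and 3 alone 5207 genes were, and of the 8 Foxh1 and Acvr2a (0.0152 and 0.0247, edgeR). DESeq2 called none of the 8 and 3.23% of all genes. Foxh1 was lower in the ENG+/FDG+ fraction in 3 of 3 pairs, by −0.49, −0.61 and −0.45 on the scale log2(CPM + 0.2), and Acvr2b by −1.38, −0.18 and −0.42. Over all genes 24.1% were lower in 3 of 3 pairs. The log2 difference of Foxh1 was −0.51 ± 0.57 (SE; adjusted p = 0.965) with group means and −0.53 ± 0.15 (adjusted p = 0.0398, edgeR) with the replicate block, where 5.75% of all genes fell. In replicates 2 and 3 alone it was −0.48 ± 0.18 (adjusted p = 0.0513, edgeR), where 14.6% of all genes fell. Without ENG-/FDG+ replicate 1, which leaves replicate 1 on the ENG+/FDG+ side only, the difference with group means was 0.01 ± 0.59.

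Between ENG-/FDG+ and ENG+/FDG- cells none of the 8 genes passed with group means either, against 0.351% of all genes. At an unadjusted p under 0.05 were 1309 of the 13662 genes and none of the 8. With the replicate block 3725 genes were, and of the 8 Foxh1 and Acvr2b (0.00129 and 0.0388, edgeR). In replicates 2 and 3 alone 4967 genes were, and of the 8 Foxh1, Acvr1b and Acvr2a (0.0108, 0.0293 and 0.0448, edgeR). DESeq2 called none of the 8 and 3.26% of all genes. Foxh1 was higher in ENG-/FDG+ cells in 3 of 3 pairs, by 0.72, 0.59 and 0.45, and Acvr2b by 1.10, 0.20 and 0.22, against 22.9% of all genes. The log2 difference of Foxh1 was 0.63 ± 0.57 (SE; adjusted p = 0.887) with group means, 0.61 ± 0.15 (adjusted p = 0.0208) with the replicate block, where 5.44% of all genes rose, and 0.50 ± 0.18 (adjusted p = 0.0422) in replicates 2 and 3, where 13.3% rose (edgeR). For Acvr2b it was 0.72 ± 0.55 (adjusted p = 0.823), 0.59 ± 0.26 with the block (adjusted p = 0.158) and 0.19 ± 0.27 in replicates 2 and 3 (adjusted p = 0.655). Without ENG-/FDG+ replicate 1, which leaves replicate 1 on the ENG+/FDG- side only, the difference of Foxh1 with group means was 0.08 ± 0.59. The high Nodal value of ENG-/FDG+ replicate 1 was not matched in replicates 2 and 3. The ENG-/FDG+ libraries also differed in their cell markers: the summed level of 8 early blood markers was 483 to 553 CPM there and 92.4 to 135 CPM in ENG+ cells, with no blood marker at 0 in all 3 libraries of a group. That of 7 endothelial markers was 2153 to 2585 CPM in ENG-/FDG+ cells and 4137 to 6472 CPM in ENG+ cells. That of 6 cardiac and smooth muscle markers was 4086, 260 and 574 CPM in ENG-/FDG+ cells and 90.3 to 543 CPM in ENG+ cells. Acta2 alone made up 3602 CPM of the highest of these sums, while Tnnt2 was at 4.24 to 9.33 CPM in ENG-/FDG+ and 10.8 to 39.0 CPM in ENG+ cells. Their part in the Foxh1 and Acvr2b values was not tested.

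Outside the 10 genes, 45 other genes of the pathway were followed in 6 lists, and 40 of them were tested. From FLK1+ to HEI cells 7 rose and 17 fell (edgeR), against 17.0% and 20.3% of all genes. With the replicate block 11 rose and 20 fell, against 28.8% and 37.4% of all genes. Of 6 other ligands 3 were tested, and Inhba, the activin A subunit, rose by 2.05 ± 0.69 on the log2 scale (SE; adjusted p = 0.0322). Its HEI reads lay mainly in the ENG-/FDG+ fraction, at 6.87, 2.02 and 2.47 CPM, and the highest of the other 12 libraries was at 0.485 CPM. Of the 2 other receptors Tgfbr3, a co-receptor for TGF-beta and inhibin, rose by 1.32 ± 0.24 (adjusted p = 0.000745), from 36.9 to 89.5 CPM (means), and Acvr1c was too low to be tested.

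All 7 antagonists were tested, and with group means 3 fell and 1 rose, against 20.3% and 17.0% of all genes. The replicate block added a fall of Tmeff1 (−0.92, adjusted p = 7.65e-08). Fst, the secreted activin trap follistatin, fell by 4.35 ± 0.35 on the log2 scale (adjusted p = 1.25e-06, edgeR), from a mean of 35.3 to 2.46 CPM. It was also lower in ENG-/FDG+ than in ENG+/FDG- cells, at −3.19 ± 0.60 (adjusted p = 0.0453). Cer1, the secreted Nodal inhibitor Cerberus, had 115 counts in FLK1+ libraries and 0 in HEI libraries (adjusted p = 0.00162), and Bambi, a receptor without kinase activity, fell by 1.47 ± 0.21 (adjusted p = 0.000109). Dand5, a Cerberus relative, rose by 1.59 ± 0.36 (adjusted p = 0.00385), from 1.98 to 6.08 CPM. Of the 4 proteases on the list of processing genes, Pcsk5 (−1.75 ± 0.19) and Pcsk6 (−2.51 ± 0.48) fell while Furin (1.54 ± 0.56) and Bmp1 (1.68 ± 0.49) rose. All were past the threshold, as were 37.3% of all genes in either direction.

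Of 15 SMADs and partners 1 rose and 3 fell with group means, and 5 rose and 5 fell with the replicate block. Over all genes 17.0% rose and 20.3% fell with group means, and 28.8% rose and 37.4% fell with the block. The counts of this list thus stood near or below the shares over all genes. Smad3 rose by 0.61 ± 0.21 on the log2 scale (adjusted p = 0.039, edgeR), and the corepressors Tgif1 (−1.24 ± 0.21) and Tgif2 (−0.62 ± 0.14) and the SMAD anchor Zfyve9 (−0.49 ± 0.16) fell. Smad2 differed by 0.29 ± 0.24 (adjusted p = 0.369) with group means and by 0.34 with the block (adjusted p = 0.00246), where it passed. Smad4 differed by 0.02 ± 0.15 (adjusted p = 0.941) and by 0.03 with the block (adjusted p = 0.75), past the threshold in neither. Of 10 known targets tested 9 fell and 1 rose, against 20.3% and 17.0% of all genes. The T-box factor Eomes fell by 5.59 ± 0.32 (adjusted p = 8.32e-08), from a mean of 238 to 4.72 CPM. The differences were −3.68 ± 0.27 for Wnt3, −9.73 ± 0.79 for Mixl1, −8.94 ± 0.83 for T (Brachyury) and −9.94 ± 0.82 for Lhx1. Sox17, a factor of both endoderm and endothelium, rose by 3.26 ± 0.30 (adjusted p = 3.62e-06), from 5.65 to 59.3 CPM. These genes moved beside markers of the populations themselves: all 9 primitive streak markers fell, their sum being 567 to 2217 CPM in FLK1+ and 5.77 to 17.4 CPM in HEI libraries, and all 7 endothelial markers rose, from sums of 385 to 780 CPM to sums of 2153 to 6472 CPM. Of the streak markers 8 are also on the target list. Mesp1 and Fgf8 had 0 counts in all 9 HEI libraries. Genes of both lists that, like these, passed the filter only through their FLK1+ level had to fall. The counts of falls in these lists are therefore no support for a joint change. The part of cell composition in the levels of the 10 genes was not tested.

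The genes whose log2 CPM followed the 15 libraries most closely, out of 9498 searched, differed between the members. For Tdgf1 they were T (Pearson r = 0.994), Mixl1 (0.991) and Dclk1 (0.983), and for Lefty2 they were Otx2 (0.994), Lhx1 (0.993) and Pou5f1 (0.992). For Nodal, which was highest in replicate 1, they were the pluripotent marker Dppa5a (0.970), Ldhb (0.962) and Ndufa4l2 (0.957). For Foxh1 they were Ddx39b, Ifitm2 and Psme2 (0.986 each). All 15 points share the step between FLK1+ and HEI cells and the offset of replicate 1, so the values are given as a description.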

How the data were processed

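The deposited table holds raw read counts per gene symbol, made by the authors; the submitters' processing notes name STAR 2.4.0, HTSeq 0.6.1 and mm10. Annotation, strand setting and filters are not stated in the sources used here. Per the labels' protocols, RNA from the sorted cells was amplified (Nugen kit). Of 24061 lines, 27 carried a date in place of a symbol and were left out. Samples were grouped by their labels. Counts were fitted with edgeR 4.0.16 (limma 3.58.1, R 4.3.3): filterByExpr, TMM scaling, 1 robust quasi-likelihood model of 5 group means over 15 libraries, and Benjamini-Hochberg adjustment over 13662 genes with a threshold of 0.05. The HEI against FLK1+ contrast sets the mean of 3 groups against the mean of 2. The fit was also run on simulated counts that held no replicate offset, so that run does not cover the offset of replicate 1 seen here. CPM are TMM-scaled, and RPKM use exon lengths of GENCODE M21 (GRCm38, which is mm10), which matched 22723 symbols directly. Log2 differences within replicates used a prior count of 2 and pairs a pseudocount of 0.2 CPM.

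Alternatives were RLE scaling, no filter, at least 5 CPM in 3 libraries, DESeq2 1.42.0, each library left out, replicates 2 and 3, and a replicate block. The labels number the replicates, and deviations of the 30 same-numbered pairs correlated at 0.432 to 0.867. Those of replicate 2 with replicate 3 of another group correlated at 0.429 to 0.636. The values thus set replicate 1 apart, and they do not show that the numbers 2 and 3 pair the libraries. The members, lists and comparisons were chosen with earlier results of these data known. The text names the 10 members, up to 6 genes past the threshold per pathway list, or the 2 highest where none passed, and for Nodal, Tdgf1, Lefty2 and Foxh1 the 3 genes of most similar pattern with at least 10 CPM in a group. Utf1, Tdh, Pou5f1, Dppa5a, Acta2 and Tnnt2 of the marker lists, and Acvr1c, Smad2, Smad4, Tmeff1, Prss40 and Orc4, were named after their values were seen.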

Additional observations from a re-analysis of the deposited data

How the results depend on the processing

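The 6 falls and 1 rise between FLK1+ and HEI cells held under RLE scaling, DESeq2 and the loss of any 1 library. They also held under the stricter filter (5 CPM or more in 3 libraries) for the genes it keeps. Lefty2, Tdgf1, Cfc1 and Nodal passed the filter only through their FLK1+ level, so that their falls held is no support for a joint change. Leave-one-out fits called 7 to 8 members: 7 of the 8 each time, never Acvr2a, and Lefty1 in the 13 fits whose filter let it in. Lefty1 entered those fits through its FLK1+ level, so its calls there are no support either. At this step 37.3% of all genes were called with group means. The share was not counted under RLE scaling, DESeq2, the stricter filter or the leave-one-out fits. The fit with the replicate block gave 1 gene past the threshold, Foxh1, between ENG+/FDG+ and ENG-/FDG+ cells (−0.53). It also gave 1, again Foxh1 (0.61), between ENG-/FDG+ and ENG+/FDG- cells. Replicates 2 and 3 gave 1 (Foxh1, 0.50) in the latter, and both settings added Acvr2a to the step between populations (−0.58 and −0.72). The block changed no other call among the 8 genes. Without the filter, Gdf3 (−3.78 in replicates 2 and 3) and Lefty1 (−3.18 without FLK1+/LacZ+ replicate 1) lost their calls, whereas Lefty1 kept its call in replicates 2 and 3 (−3.70); these settings were added after the data were seen.

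Several differences that passed no threshold turned sign, and the cause was not tested. In replicates 2 and 3 alone, LacZ+ minus LacZ- cells differed by −0.38 for Nodal and −0.06 for Acvr2b, and ENG+/FDG+ minus ENG-/FDG+ cells by 0.19 for Acvr1b. With 1 library left out, the LacZ difference ran from −1.66 to 1.75 for Nodal, −0.52 to 0.35 for Acvr2a and −0.42 to 0.46 for Acvr2b. It ran from −0.73 to 0.52 for Foxh1 and −1.88 to 0.64 for Lefty2. The ends for Foxh1 were the fits without LacZ+ replicate 1 (−0.73) and without LacZ- replicate 1 (0.52). Such fits of group means leave replicate 1 on 1 side of the contrast only. The FDG difference of Foxh1 ran from −0.42 to 0.53. For ENG+/FDG+ minus ENG-/FDG+ cells the ranges were −0.25 to 0.15 for Acvr1b, −0.20 to 0.46 for Acvr2a and −1.05 to 0.01 for Foxh1, and for ENG-/FDG+ minus ENG+/FDG- cells −0.17 to 1.08 for Acvr2b. Depth limits Gdf3, Lefty1, Lefty2, Cfc1 and Tdgf1 in HEI cells, where single libraries held 0 to 35 reads of each.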
